A study of Mus musculus with 6 samples.

Results

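The mitochondrial carriers of the SLC25 family were examined in RNA from mouse hearts, with 3 wild-type libraries (WT 4, WT 5 and WT 6) set against 3 libraries labelled as double knockout (DKO 7, DKO 8 and DKO 9). Members were all gene rows named Slc25a followed by a number, apart from Slc25a4 and Slc25a20, which gave 45 of 24525 rows. Of these, 38 reached at least 1 TPM in at least 3 of the 6 libraries and were tested among 14541 genes. TPM is an abundance scaled by transcript length and by the library total, so levels can be compared between genes. Hearts came from animals aged 3 to 6 months. Per the labels, the DKO animals carried null alleles of Mbnl1 in every cell and conditional alleles of Mbnl2, with 1 copy of a Cre recombinase driven by the cardiomyocyte promoter Myh6. MBNL proteins are RNA-binding regulators of splicing that are trapped by expanded repeats in myotonic dystrophy. Cells other than cardiomyocytes kept Mbnl2 by this design, and no further allele or treatment is given for the WT animals.

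SLC25 carriers are small proteins of the inner mitochondrial membrane, built from a repeated module of paired helices, that exchange nucleotides, phosphate, carboxylates, amino acids, cofactors and metal ions between cytosol and matrix. In the heart they supply ADP and phosphate to ATP synthase, and the malate-aspartate shuttle built on them carries reducing equivalents from cytosolic NADH into the matrix. The comparison asks which of these carriers differ in transcript level when both Mbnl genes are targeted. Group levels are given as mean ± SD (n = 3 libraries). A log2 difference is the DKO mean less the WT mean of log2(TPM + 1), which understates changes at low TPM. Each was tested with limma, its p adjusted by Benjamini-Hochberg (BH) across the 14541 genes and called at 0.05.

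The targeted gene Mbnl1 had 102 to 108 TPM in the libraries labelled DKO and 145 to 161 in WT, whereas Mbnl2 had 227 to 245 TPM against 149 to 189. The Mbnl2 values go against the loss that the label names. A gene-level value does not check a partial deletion, so every direction below rests on the library labels. For DKO 7 the labels conflict, since the genotype tag reads WT while title and source name read DKO. DKO 7 and DKO 8 had 152 and 174 TPM of Xist and under 1 TPM summed over 4 Y-linked genes. The other 4 libraries had 163 to 179 TPM of these Y-linked genes. Both libraries low in Y-linked transcripts are grouped as DKO, so this trait is partly confounded with the group. WT 5 had the highest haemoglobin share, 3.83% of TPM against 0.321% to 1.41% in the other libraries. The 10 cardiomyocyte markers were all present and summed to between 67098 and 74735 TPM, which fits the labelled tissue. In such bulk tissue fewer cells of a type and less RNA per cell cannot be told apart.

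Of the 38 tested members, 5 fell (Slc25a42, Slc25a22, Slc25a34, Slc25a32 and Slc25a11) and 1 rose (Slc25a36), while 32 did not pass (limma, BH adjusted p under 0.05). Over all genes tested, 4.22% fell and 6.51% rose, 10.7% in all. The members' shares were 13.2% and 2.63%. Their median log2 difference was -0.11, with 22 below 0 and 16 above, against a median of 0.03 over all genes. Of all genes tested, 45.3% lay below 0. Under median-ratio and quantile scaling 27 and 29 members lay below 0, while the median over all genes also moved down, to 0.00336 and -0.0242. The members' median was -0.138 and -0.167 there. Groups did not overlap for 16 members, 13 with DKO below WT and 3 with DKO above, against 33.0% of all genes tested (13.8% below and 19.1% above). An unadjusted p under 0.05 was found for 15 of the 38 members and for 3921 of the 14541 genes (limma). The plot of differences orders the tested members by size and sign.

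**Figure D1:**
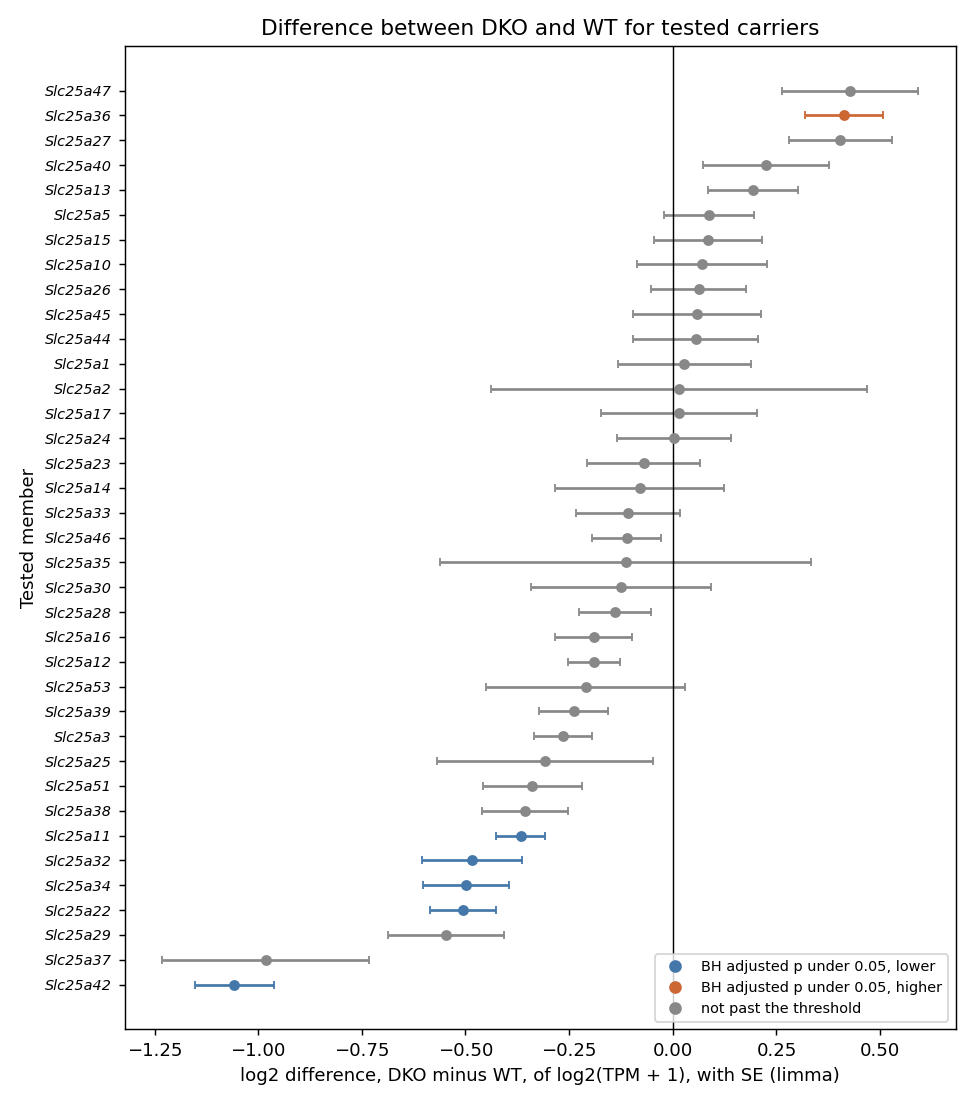
Log2 difference between DKO and WT (x axis, DKO minus WT, log2(TPM + 1) scale) with its limma standard error for the tested members reported here; colour marks the members with a BH adjusted p under 0.05. The 5 members that fell lie between -1.06 and -0.37, Slc25a36 lies at 0.41, and Slc25a37 has a large but imprecise difference.

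The calls depended on which libraries were compared. With replicate 7 counted as WT, as its genotype tag has it, 0 members passed (limma; 1 gene of 14541 passed). DKO 7 had 102 TPM of Mbnl1 and 227 TPM of Mbnl2, whereas WT ranged from 145 to 161 and from 149 to 189. Over the 38 tested members, library correlations were 0.990 to 0.994 within DKO, 0.977 to 0.996 within WT and 0.970 to 0.986 between groups. By these values DKO 7 lay closer to the other DKO libraries than to WT. Why the calls were lost with replicate 7 counted as WT was not tested. Which label of DKO 7 is right was not tested. With a term for Y-linked transcripts, Slc25a42 remained past the threshold (limma, BH adjusted p = 0.0411) and the other members did not. Each call that 1 library decides is named below.

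The members spanned a wide range of levels. Slc25a3 alone made up 47.1% ± 1.12 of the members' summed TPM in WT and 45.6% ± 0.313 in DKO. The sum of the 45 members was 3850, 3761 and 3601 TPM in WT 4, 5 and 6 and 3022, 3289.6 and 3347 TPM in DKO 7, 8 and 9, so that DKO had 0.862 of the WT mean and the groups did not overlap. Without Slc25a3 the ratio was 0.887. By role, the DKO sum lay below WT without overlap in most groups. It was 0.871 of WT for ADP/ATP and phosphate carriers and 0.862 for shuttle and carboxylate carriers. For amino acid carriers it was 0.845, for nucleotide and cofactor carriers 0.865, and for iron and glutathione carriers 0.810. For outer membrane and orphan members it was 0.765, where Slc25a34 held 141 of the 198 TPM in WT. The sums of ATP-Mg carriers (0.930) and uncoupling-like carriers (1.07) overlapped. Of the 7 members averaging at least 100 TPM, 2 fell and 0 rose, and among the 19 between 10 and 100 TPM 3 fell and 1 rose. None of the 12 tested members under 10 TPM passed (limma, BH adjusted p at least 0.0527). Among all genes at these 3 levels, 13.6%, 4.50% and 1.39% fell and 15.3%, 5.85% and 5.26% rose.

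**Figure D2:**
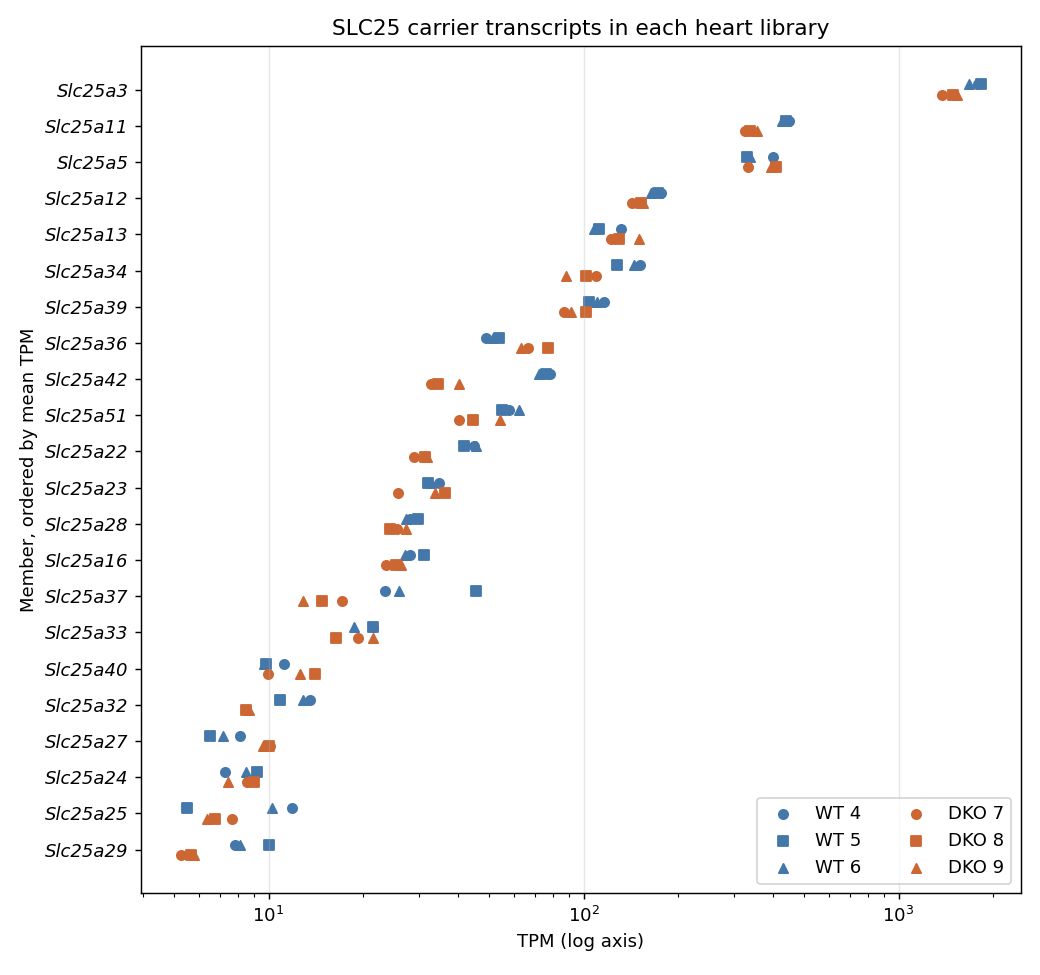
TPM (log axis) of 22 members in each of the 6 libraries; blue symbols are WT and orange symbols DKO, and rows are ordered by mean TPM. Slc25a42 and Slc25a22 show clearly separated groups, Slc25a36 is separated in the other direction, and WT 5 stands apart for Slc25a37.

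Carriers of cofactors and nucleotides, 9 of the 38 tested members, held 3 of the 6 called members, 2 that fell and 1 that rose. These are 22.2% and 11.1% of a small group, against 4.22% and 6.51% of all genes tested. Slc25a42 (chromosome 8, 70184340 to 70212281 on GRCm38), which imports coenzyme A into the matrix in exchange for adenine nucleotides, had 78.0, 75.8 and 72.0 TPM in WT 4, 5 and 6 and 32.7, 34.4 and 40.2 TPM in DKO 7, 8 and 9. Every library labelled DKO thus lay far below every WT library. The level fell from 75.3 ± 3.04 to 35.8 ± 3.93 TPM, 0.475 of WT, and its fall by 1.06 on the log2 scale passed (SE 0.09; limma, BH adjusted p = 0.00307; exact two-sided permutation p = 0.1, the smallest that 3 against 3 libraries allow). The call held without each library in turn (limma, BH adjusted p up to 0.0185). In the libraries with Y-linked transcripts alone, 3 WT and DKO 9, the log2 difference was -0.89 (limma, BH adjusted p = 0.0995). Slc25a16, a relative also linked to coenzyme A transport, had 28.1, 31.2 and 27.0 TPM in WT and 23.5, 25.3 and 26.3 TPM in DKO. Its groups did not overlap either, but the gap was small and the difference of -0.19 did not pass (limma, BH adjusted p = 0.243). The ratio of Slc25a16 to Slc25a42 was 0.360, 0.411 and 0.375 in WT and 0.720, 0.736 and 0.654 in DKO.

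The sequences upstream of these relatives are shown because the pair holds the largest fall and a near neighbour in function. They come from RefSeq on GRCm38.p6, on the minus strand at chr8:70212306-70212531 for Slc25a42 and on the plus strand at chr10:62920383-62920631 for Slc25a16. Capitals mark the CCAAT box (CCAAT, or ATTGG on the other strand), a common promoter motif bound by the NF-Y complex.
Slc25a42: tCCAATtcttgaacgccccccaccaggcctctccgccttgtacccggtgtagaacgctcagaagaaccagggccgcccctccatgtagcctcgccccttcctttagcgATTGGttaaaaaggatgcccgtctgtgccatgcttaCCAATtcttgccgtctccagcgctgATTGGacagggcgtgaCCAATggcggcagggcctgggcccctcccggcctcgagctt
Slc25a16: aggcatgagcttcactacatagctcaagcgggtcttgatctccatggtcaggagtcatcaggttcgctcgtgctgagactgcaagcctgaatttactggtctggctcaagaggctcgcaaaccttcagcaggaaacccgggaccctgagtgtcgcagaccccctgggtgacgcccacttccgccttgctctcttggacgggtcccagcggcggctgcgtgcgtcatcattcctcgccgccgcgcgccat
The Slc25a42 stretch holds 5 such matches and the Slc25a16 stretch none. Of 32851 promoters of 300 bases in the table, 37.4% hold at least 1 match on either strand and 0.271% hold 5 or more. Of the 37 promoters of tested members 20 hold a match (54.1%). The 5 called members with a promoter there have 7 promoters, of which 5 hold a match. Each of these members has at least 1 promoter with a match, including Slc25a36, which rose. A match describes letters and was not tested as a binding site.

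Slc25a32 (chromosome 15, 39091230 to 39112720), a carrier of folate and flavin cofactors, had 13.5, 10.9 and 12.8 TPM in WT and 8.49, 8.49 and 8.70 TPM in DKO. The 3 DKO values were nearly equal and all below WT. Its log2 difference of -0.48 (SE 0.12) lay just under the threshold (limma, BH adjusted p = 0.0499), and the call was lost without any 1 of the 6 libraries (0.0549 to 0.139) and with no filter (0.0759). Slc25a36 (chromosome 9, 97075281 to 97111041), a carrier of pyrimidine nucleotides needed for mitochondrial DNA and RNA synthesis, was the member that rose. It had 48.9, 54.1 and 51.6 TPM in WT and 66.6, 77.4 and 63.4 TPM in DKO, with DKO 8 the highest and no overlap. The level averaged 51.5 ± 2.60 TPM in WT and 69.1 ± 7.35 in DKO and rose by 0.41 on the log2 scale (SE 0.09; limma, BH adjusted p = 0.039). This call too was lost without any 1 library (limma, BH adjusted p 0.055 to 0.11), with no filter (0.0505), when rescaled without haemoglobin and ribosomal RNA (0.0507) and without the variance trend (0.0744). Slc25a33, the other pyrimidine nucleotide carrier, had 21.4, 21.5 and 18.7 TPM in WT and 19.3, 16.4 and 21.5 TPM in DKO, and its groups overlapped (limma, BH adjusted p = 0.64). The ratio of Slc25a33 to Slc25a36 was 0.438, 0.397 and 0.362 in WT and 0.289, 0.211 and 0.340 in DKO.

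The stretch before the start of Slc25a36 (minus strand, chr9:97111158-97111291, RefSeq on GRCm38.p6) is shown because this gene rose. Capitals mark an E-box (CACGTG), a cAMP response element (TGACGTCA) and a CCAAT box.
Slc25a36: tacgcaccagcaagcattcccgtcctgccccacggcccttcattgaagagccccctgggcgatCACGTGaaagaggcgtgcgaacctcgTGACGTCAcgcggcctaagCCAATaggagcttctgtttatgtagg
Among all promoters of 300 bases 7.15% hold an E-box and 1.79% a cAMP response element, searched on both strands. Of the 37 promoters of 28 tested members in the table, 7 hold an E-box and 2 a cAMP response element. Of the called members with a promoter there, Slc25a36 is the sole one that holds either. The matches were not tested as binding sites.

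Other cofactor carriers did not pass. Slc25a51, which imports NAD, had 57.9, 55.2 and 62.5 TPM in WT and 40.2, 44.7 and 54.2 TPM in DKO. The groups did not overlap, but DKO 9 came close to WT 5, and with a term for Y-linked transcripts the log2 difference of -0.34 (limma, BH adjusted p = 0.124) became -0.11. The S-adenosylmethionine carrier Slc25a26 and the peroxisomal cofactor carrier Slc25a17 had means between 22.4 and 23.3 TPM in both groups and differences of 0.06 and 0.02.

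Among amino acid carriers the glutamate importer Slc25a22 fell and 7 other tested members did not pass. Slc25a22 (chromosome 7, 141429749 to 141437874) had 44.99, 41.7 and 45.7 TPM in WT and 29.1, 31.3 and 31.8 TPM in DKO, a clear gap between the groups. It had 44.1 ± 2.14 TPM in WT and 30.7 ± 1.48 in DKO and fell by 0.51 on the log2 scale (SE 0.08; limma, BH adjusted p = 0.0129), and the call was lost without WT 6 (0.0524). Slc25a18, the other glutamate carrier, reached at most 0.826 TPM and was not tested. Slc25a29, a carrier of basic amino acids, had 7.83, 10.01 and 8.13 TPM in WT and 5.28, 5.66 and 5.80 TPM in DKO. Its groups did not overlap, and its log2 difference of -0.55 (SE 0.14) narrowly missed (limma, BH adjusted p = 0.0527). It passed in 3 of 17 settings, with median-ratio scaling (0.0415), with quantile scaling (0.0306) and without the variance trend (0.0444). With 1 library left out it never passed (limma, BH adjusted p 0.0882 to 0.125). Slc25a38, which imports glycine for haem synthesis, lay at 19.5 to 21.2 TPM in WT and 14.3 to 17.3 TPM in DKO, without overlap (BH adjusted p = 0.0775, limma). Slc25a47, a neighbour of Slc25a29 placed with this group, lay at 3.64 to 5.21 TPM in WT and 5.68 to 6.38 TPM in DKO, without overlap, a difference that missed the threshold (BH adjusted p = 0.151, limma). These neighbours on chromosome 12 are 14.0 kb apart and had differences of opposite sign, -0.55 and 0.43. The ornithine carrier Slc25a15, the branched-chain amino acid carrier Slc25a44, and Slc25a45 and Slc25a2 had differences between 0.02 and 0.09, with overlapping groups.

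In the malate-aspartate shuttle the oxoglutarate-malate carrier fell, and neither aspartate-glutamate carrier passed. Slc25a11 (chromosome 11, 70644019 to 70647531), which exchanges matrix oxoglutarate for cytosolic malate, had 449, 439.7 and 427 TPM in WT and 326, 339 and 355 TPM in DKO. Its lowest WT value stood well above its highest DKO value. It had 438 ± 11.1 TPM in WT and 339.7 ± 14.3 in DKO and fell by 0.37 on the log2 scale (SE 0.06; limma, BH adjusted p = 0.0135), a call lost without DKO 8 (0.0522) and without the variance trend (0.0528). Of its 2120 annotated exonic bases, 189 are shared with Rnf167 on the other strand, and Rnf167 did not pass (log2 difference -0.10; limma, BH adjusted p = 0.42).

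Slc25a12 and Slc25a13 both encode calcium-regulated carriers that exchange matrix aspartate for cytosolic glutamate. Slc25a12, the form known from excitable tissue, had 176, 173 and 164 TPM in WT and 143, 152 and 155 TPM in DKO, without overlap (log2 difference -0.19; limma, BH adjusted p = 0.105). Slc25a13, known as citrin and from liver, had 131, 112 and 108 TPM in WT and 122, 129 and 151 TPM in DKO, with overlap (0.19; limma, BH adjusted p = 0.305). Neither passed alone. Their ratio within a library, which does not depend on library scaling, was 1.34, 1.54 and 1.52 in WT and 1.17, 1.17 and 1.03 in DKO, without overlap. The soluble enzymes of the shuttle, Got1, Got2, Mdh1 and Mdh2, had differences between -0.09 and 0.14 and 0 of the 4 passed (limma; lowest BH adjusted p = 0.306). The citrate carrier Slc25a1 and the dicarboxylate carrier Slc25a10 averaged 6.68 to 7.40 TPM in both groups, and neither passed. The oxodicarboxylate carrier Slc25a21 reached at most 0.846 TPM.

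Slc25a3 and Slc25a5 supply ATP synthase with phosphate and ADP. Slc25a3, the phosphate carrier and the most abundant member, had 1787, 1821 and 1677 TPM in WT and 1375, 1489.6 and 1537 TPM in DKO. All DKO values lay below WT, with 0.833 of the WT mean, but the log2 difference of -0.26 (SE 0.07) narrowly missed (limma, BH adjusted p = 0.0565). It passed in 3 of 17 settings, with a 5 TPM filter (0.0441), median-ratio scaling (0.0353) and rescaling without haemoglobin and ribosomal RNA (0.0446). Its BH adjusted p (limma) was 0.271 with quantile scaling, 0.131 without the variance trend and 0.0874 to 0.136 with 1 library left out. Heart and general forms of this carrier arise from alternative exons, and the deposited gene-level TPM does not separate them. Slc25a5, an ADP/ATP carrier on the X chromosome, had 401, 331 and 337 TPM in WT and 333, 408 and 395 TPM in DKO, with overlapping groups (log2 difference 0.09; limma, BH adjusted p = 0.66). Processed copies of this gene are common in mammalian genomes, and how the authors' counting shared reads with them was not tested. Slc25a3 over Slc25a5 was 4.46, 5.51 and 4.98 in WT and 4.13, 3.66 and 3.89 in DKO. The testis-type ADP/ATP carrier Slc25a31, with at least 1 TPM in 2 libraries, lay just outside the rule at up to 1.86 TPM. Slc25a2 lay just inside it, with at least 1 TPM in 3 libraries and a range of 0.280 to 2.37 TPM. Slc25a53 was also low, at 0.824 to 1.95 TPM, but had at least 1 TPM in 5 libraries.

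The calcium-regulated ATP-Mg/phosphate carriers, which set the size of the matrix adenine nucleotide pool, gave 0 calls. Slc25a23 had 34.9, 32.1 and 32.9 TPM in WT and 25.7, 36.4 and 33.7 TPM in DKO. Slc25a24 had 7.29, 9.17 and 8.48 TPM in WT and 8.56, 8.98 and 7.43 TPM in DKO. Slc25a25 had 11.8, 5.49 and 10.3 TPM in WT and 7.65, 6.77 and 6.39 TPM in DKO, where WT 5 lay below every DKO library. Groups overlapped for these 3 genes, with log2 differences of -0.07, 0.00 and -0.31 (limma, BH adjusted p at least 0.508). Slc25a41, a further relative 2.1 kb from Slc25a23, was listed at 0 in all 6 libraries.

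**Figure D3:**
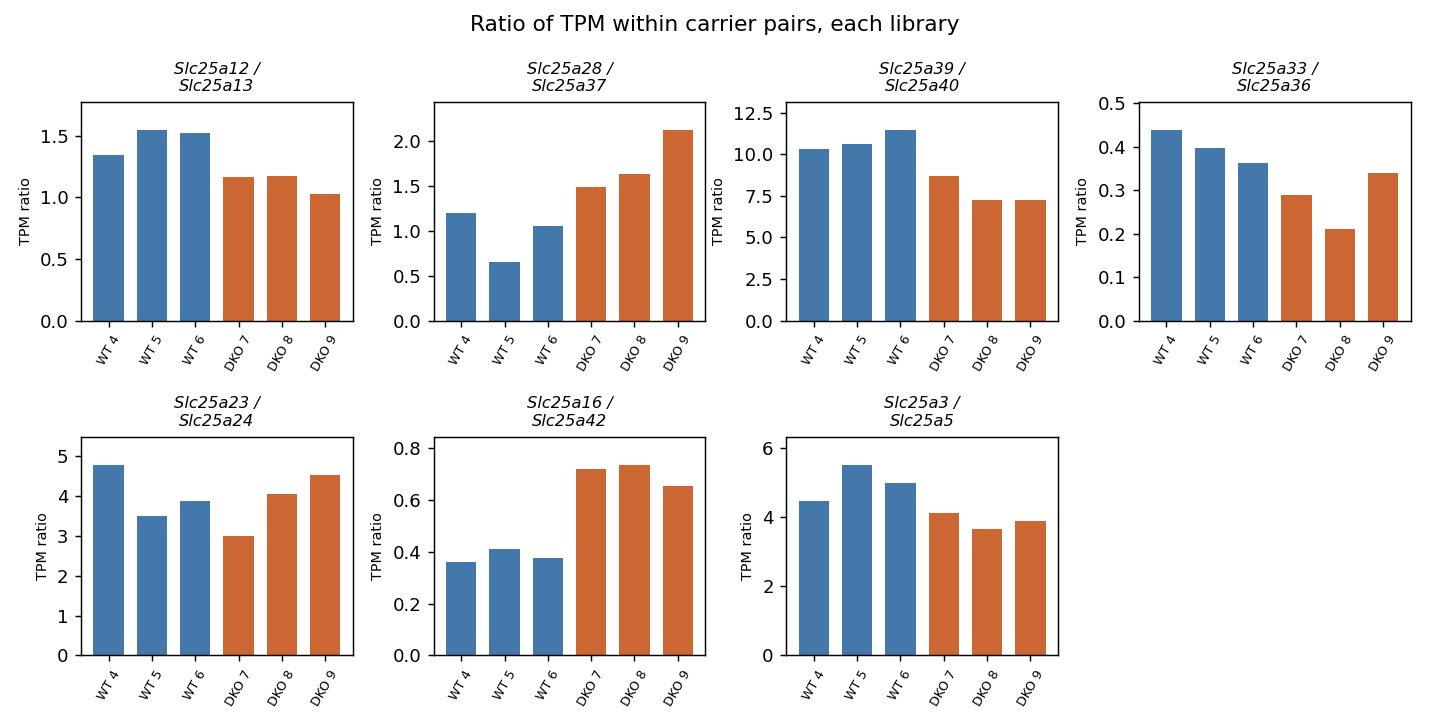
Ratio of TPM (y axis, from 0) within 7 pairs of related carriers in each library, blue for WT and orange for DKO. Slc25a23 over Slc25a24 overlaps between the groups and the other ratios do not; the ratios were not tested, and each of those 6 pairs holds a member whose own groups do not overlap.

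Of the iron carriers, one differed widely between the groups without passing and the other differed little. Slc25a37, the mitoferrin that loads iron for haem synthesis in red cell precursors, had 23.5, 45.6 and 26.01 TPM in WT and 17.1, 14.8 and 12.9 TPM in DKO. DKO had 0.472 of the WT mean, a log2 difference of -0.98 with SE 0.25 that missed the threshold (BH adjusted p = 0.0523, limma), and WT 5 was far above the rest. Without WT 5 the log2 difference was -0.70 (limma, BH adjusted p = 0.0536). Slc25a37 passed in 2 of 17 settings, with a 5 TPM filter (0.0483) and with array weights (0.0415). Slc25a28, the mitoferrin of other tissues, had 28.2, 29.8 and 27.3 TPM in WT and 25.5, 24.3 and 27.4 TPM in DKO, which overlapped (-0.14; limma, BH adjusted p = 0.354). Slc25a28 over Slc25a37 was 1.20, 0.654 and 1.05 in WT and 1.49, 1.64 and 2.12 in DKO.

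Erythroid transcripts are given beside Slc25a37. The share of haemoglobin rows in library TPM was 0.779% in WT 4, 3.83% in WT 5 and 1.41% in WT 6, against 0.879%, 0.321% and 0.385% in DKO 7, 8 and 9. Alas2, the haem synthesis enzyme of red cell precursors, had 31.6, 165 and 54.7 TPM in WT and 30.1, 14.5 and 11.5 TPM in DKO. WT 5 was highest and DKO 8 and DKO 9 lowest for both, as for Slc25a37. Of 8 erythroid markers 8 had a negative difference and 1, Slc4a1, fell, with summed levels of 6082 to 38551 TPM in WT and 1800 to 6798 TPM in DKO. None of the 8 was at 0 in WT, and Hbb-bt was listed at 0 in DKO 8. Hbb-bs had 1690 TPM in DKO 7 but 1.149 and 0.892 TPM in DKO 8 and DKO 9. Hba-a1 still had 1115 and 1407 TPM in DKO 8 and DKO 9. The low sums of DKO 8 and DKO 9 thus rest in part on Hbb-bs and Hbb-bt. Why these genes were nearly absent there was not tested. DKO 7 had a larger haemoglobin share than WT 4 and a lower Slc25a37 level. The part of erythroid RNA in the Slc25a37 and Slc25a38 values was not tested.

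**Figure D4:**
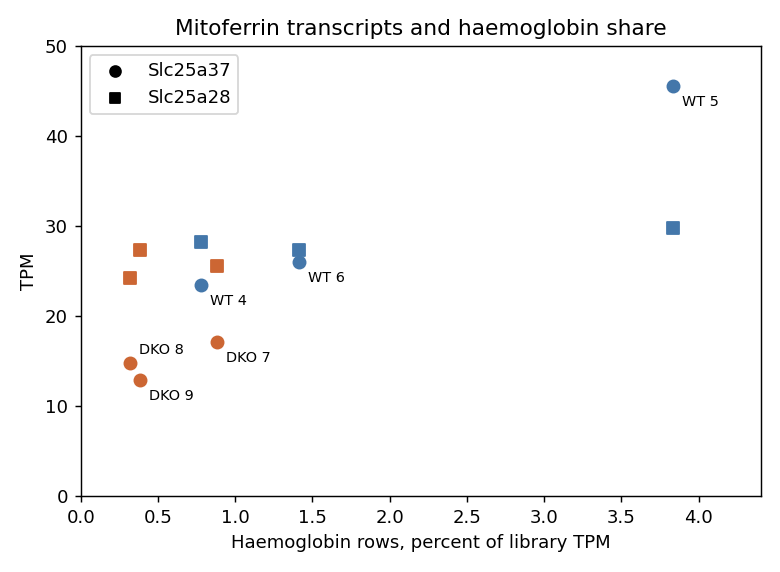
TPM of Slc25a37 (circles, labelled by library) and Slc25a28 (squares) against the share of library TPM in haemoglobin rows (x axis, percent); blue is WT and orange DKO. WT 5 is highest on both axes for Slc25a37 at 45.6 TPM and 3.83%, while Slc25a28 stays between 24.3 and 29.8 TPM.

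Slc25a39 and Slc25a40 are related carriers of glutathione, the main antioxidant thiol of the matrix. Slc25a39 had 116, 104 and 110.4 TPM in WT and 86.7, 102 and 91.4 TPM in DKO, without overlap (-0.24; limma, BH adjusted p = 0.12). It passed in 1 of 17 settings, median-ratio scaling (0.0434). Slc25a40 had 11.2, 9.79 and 9.65 TPM in WT and 9.95, 14.1 and 12.6 TPM in DKO, with overlap (0.22; limma, BH adjusted p = 0.397). The ratio of Slc25a39 to Slc25a40 was 10.3, 10.6 and 11.4 in WT and 8.72, 7.22 and 7.26 in DKO, lower in each DKO library.

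Carriers related to uncoupling proteins, and members without a settled substrate, included 1 call. Slc25a34 (chromosome 4, 141618819 to 141623891), an orphan carrier at a high level in this tissue, had 151, 128 and 145 TPM in WT and 109, 102 and 87.7 TPM in DKO. The groups did not overlap, and DKO 9 was the lowest. It averaged 141 ± 11.98 TPM in WT and 99.7 ± 11.02 in DKO and fell by 0.50 on the log2 scale (SE 0.10; limma, BH adjusted p = 0.0304). The call was lost without WT 4 (0.0883), WT 6 (0.093), DKO 8 (0.0818) or DKO 9 (0.0691), and without the variance trend (0.0637). Slc25a27, of the uncoupling protein type, had 8.14, 6.52 and 7.16 TPM in WT and 10.1, 10.01 and 9.63 TPM in DKO, without overlap (0.40; limma, BH adjusted p = 0.088). Its relatives Slc25a14 and Slc25a30 had overlapping groups and differences of -0.08 and -0.12. Slc25a46, an outer membrane protein that acts in fission and fusion, lay at 44.7 to 54.2 TPM over the 6 libraries (-0.11; limma, BH adjusted p = 0.446). The orphans Slc25a35 and Slc25a53 did not pass, at 1.25 to 6.15 and 0.824 to 1.95 TPM. Slc25a43 reached at most 0.981 TPM. Slc25a54 of this group, and Slc25a48, placed with the amino acid group only for this grouping, were listed at 0 in all libraries.

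The upstream stretch of Slc25a34 (minus strand, chr4:141623892-141624084, RefSeq on GRCm38.p6) is shown because it holds AAGGTCA. These letters are a nuclear receptor half-site of the type bound by estrogen-related receptors, factors known to drive mitochondrial genes. Capitals mark that match, read on the other strand as TGACCTT, and a CCAAT box on the other strand.
Slc25a34: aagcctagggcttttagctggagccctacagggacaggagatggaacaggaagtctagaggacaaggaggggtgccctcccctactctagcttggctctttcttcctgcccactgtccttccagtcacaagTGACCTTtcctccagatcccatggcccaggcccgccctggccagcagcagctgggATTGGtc
AAGGTCA was found on either strand in 4.72% of all promoters of 300 bases and in 1 of the 37 promoters of tested members. The motif of NRF1, a further activator of mitochondrial genes, was found in 4.60% and in 1 of 37. These matches describe letters and were not tested as binding sites.

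Other genes of mitochondrial transport give the context. Of 6 tested carriers of the same family outside the rule, 1 fell, the carnitine carrier Slc25a20 (log2 difference -0.83; limma, BH adjusted p = 0.00188), and 0 rose. The median of these 6 was -0.21. The heart ADP/ATP carrier Slc25a4 was the most abundant carrier in the table at 6348 ± 406 TPM in WT and 5314 ± 95.6 TPM in DKO, a difference of -0.25 that missed the threshold (BH adjusted p = 0.0729, limma). Of 13 other inner membrane transporters 2 fell, the subunits Mpc1 (-0.36; limma, BH adjusted p = 0.0339) and Mpc2 (-0.41; 0.0348) of the pyruvate carrier, with a median of -0.23. Of 4 outer membrane proteins 1 rose, the translocator protein Tspo (0.48; limma, BH adjusted p = 0.0288). Of 13 genes for the import of carrier proteins 3 fell, Timm8a1 (-0.44; limma, BH adjusted p = 0.0225), Timm29 (-0.43; 0.043) and Timm8b (-0.22; 0.0478), and 0 rose, with a median of -0.11.

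Of 12 mitochondrial content markers 3 fell, Hspd1 (limma, BH adjusted p = 0.0161), Sdha (0.0169) and Opa1 (0.0208), 0 rose, and 11 had a negative difference, with a median of -0.21. Their summed level was 8025 to 8395 TPM in WT and 6957 to 7299 TPM in DKO. Of 10 cardiomyocyte markers 1 rose, Ttn, and 1 fell, Mb, with a median of -0.04. Their summed level was 71850 to 74735 TPM in WT and 67098 to 68550 TPM in DKO, also without overlap. Of 8 macrophage markers 4 rose and 0 fell, with summed levels of 151 to 228 TPM in WT and 332 to 441 TPM in DKO. Of 8 fibroblast markers 3 rose and 0 fell, and of 8 endothelial markers 2 fell and 0 rose. Of 7 smooth muscle and pericyte markers 1 rose and 2 fell. The part of mitochondrial content and of cell makeup in the carrier values was not tested.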

How the data were processed

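The authors deposited 1 table of TPM, 1 value per gene and library. The tools named per the submitters' processing notes are kallisto 0.44.0 and bcl2fastq, and the build is mm10. Neither the annotation nor how transcripts were summed to genes is stated there. Per the labels, libraries were strand-specific, with 2 reads of 75 bases per fragment. Depth is unknown from TPM, and an abundant RNA that changes shifts all other values.

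Values were taken as log2(TPM + 1) and fitted in limma 3.58.1 under R 4.3.3, by lmFit and a trended eBayes. The filter asked for 1 TPM or more in 3 or more of the 6 libraries. Whether each library is a different animal is not stated, and the p-values cover only the spread among these libraries, which may be technical. Positions and promoters are from RefSeq tables of GRCm38.p6, which list all 45 members and promoters of 34; printed stretches lie outside the gene's own RefSeq extent and the UTRs of GENCODE M21.

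Values in every library are given for members past the threshold, the 10 most abundant, both genes of each pair, and the member of each role group that differs most. The other members are given by range, and 1 tested member that did not pass is counted but not reported here. Members, role groups and lists were chosen with earlier results of these data known. Protein features that had been planned were not analysed here. Alternatives were pseudocount 0.1, no filter, a 5 TPM filter, 3 rescalings, array weights, an untrended eBayes, DKO 7 moved to WT, Y-linked transcripts as a term or as a restriction, and each library left out.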

Additional observations from a re-analysis of the deposited data

How the results depend on the processing

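No paired analysis was possible because the groups share no replicate number. Over all genes, 1560 were called, 622 to 877 when 1 library was left out, 1 with replicate 7 as WT, 92 with a term for Y-linked transcripts and 12 in the libraries with Y-linked transcripts alone. Members called lower were 5, and 2 to 4 when 1 library was left out, 9 with median-ratio scaling, 0 with replicate 7 as WT, 1 with the Y-linked term and 0 in the Y-linked libraries alone. The 1 member called higher became 0 without a filter, when rescaled without haemoglobin and ribosomal RNA, without trend, with replicate 7 as WT, in both Y-linked settings and when any 1 library was left out (0 to 0). Members below 0 numbered 22, 27 with median-ratio and 29 with quantile scaling, settings in which the median over all genes moved down as well. Slc25a23 turned positive with replicate 7 as WT (0.16), in both Y-linked settings (0.0205) and without DKO 7 (range over libraries left out -0.17 to 0.0746). Slc25a33 was 0.0692 in both Y-linked settings. Slc25a24, near 0, turned negative with median-ratio (-0.0263) and quantile scaling (-0.10), rescaling (-0.0186), array weights (-0.00396), replicate 7 as WT (-0.028), both Y-linked settings (-0.14) and with libraries left out (-0.0789 to 0.0734). The cause of these changes was not tested. Of 374 values for 22 members over 17 settings, 308 kept direction and side of the threshold, many of them from members that were never called. A call was lost in 41 values, gained in 9, and the sign changed in 16. Of the 17 settings, the called members passed in 15 (Slc25a42), 13 (Slc25a22), 12 (Slc25a11), 9 (Slc25a34), 7 (Slc25a32) and 5 (Slc25a36). The Y-linked term and the Y-linked libraries give the same difference, since both set DKO 9 against WT.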
